A study of Mus musculus with 2 samples.

Results

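The cytosolic ribosomal protein genes of mouse skeletal muscle were taken as all protein-coding genes whose symbol starts with Rpl or Rps and a number, together with Rpsa, Rplp0, Rplp1 and Rplp2, and without the Rps6k kinases. The rule found 92 genes, and 88 of them had reads among the 15747 annotated genes with reads. They are 46 genes of the large subunit, 31 genes of the small subunit, 8 paralogs with a parent gene of nearly the same name, and 6 coding genes that carry a pseudogene name. The remaining member, Rps19bp1, encodes a protein that binds a small subunit protein and is not part of the ribosome. Fau and Rack1 encode ribosomal proteins but have names outside the rule, and their values are given at the end.

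The RNA came from the gastrocnemius, the large calf muscle, of female B6CASTF1/J mice at 14 days of age. B6CASTF1/J is a hybrid of a C57BL/6 and a CAST parent. There was 1 group of 2 long-read libraries, replicates 1 and 2, each made from 2 µg of RNA, with no treatment or second genotype in the labels. The label of replicate 1 speaks of several females and that of replicate 2 of a female, both under the same donor identifier, so how many animals each library holds is unclear. Annotated genes held 1248854 reads in replicate 1 and 1106450 in replicate 2. A single read was worth 0.801 CPM (reads scaled to 1000000 annotated-gene reads) in replicate 1 and 0.904 in replicate 2, and a gene with no read could have had up to 3, that is 2.40 and 2.71 CPM. All 6 markers of fast muscle fibres were detected in both libraries, with summed levels of 313925 and 267899 CPM. The libraries differed by transcript length: the mean length of the assigned model was 2347 bases per read in replicate 1 and 1545 in replicate 2.

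Each ribosome carries a large and a small subunit, built from ribosomal RNA and one copy of most of these proteins, so cells need the proteins in matched amounts. Many ribosomal protein mRNAs begin with a terminal oligopyrimidine tract, a C followed by a run of pyrimidines, through which mTORC1 and LARP1 control their translation. Muscle is known for a paralog of its own, Rpl3l, which can take the place of Rpl3 in the ribosome.

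Start sites are shown first, because the rule did not use sequence. RefSeq start windows (build GRCm38.p6) were found for 66 of the 92 genes. A C followed by at least 4 pyrimidines stood exactly at an annotated start in 14 of the 66 (21.2%), against 2.96% of 26959 other genes. It lay between 10 bases before and 15 bases after a start in 40 of the 66 (60.6%), against 34.3% of the other genes. TATAA on either strand 40 to 21 bases before the start was found for 4 of the 66 (6.06%) and for 4.79% of the other genes. The windows below, of 25 bases with the annotated start as base 11, belong to members with high levels and to both paralogs that outnumbered their parent in the genes' own reads and have a window with the tract. Capitals mark the tract. Rpl35 lies at chr2:39005117-39005141 (minus strand), Rpl38 at chr11:114668570-114668594, Rpl22l1 at chr3:28805498-28805522, Rpl3l at chr17:24727816-24727840, Rplp0 at chr5:115559457-115559481 (all plus strand) and Rpl41 at chr10:128549154-128549178 (minus strand).
Rpl35: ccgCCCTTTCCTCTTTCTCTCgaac
Rpl38: aagcctcgttCTTTCCCCgttctct
Rpl22l1: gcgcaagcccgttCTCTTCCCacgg
Rpl3l: ttctagctctgtcatttgaCCTCTg
Rplp0: cgggtttcgaggaccgcctggttct
Rpl41: gggccggctcggaagtgacgacacc
Rpl35 had a tract of 18 bases across its start, and that of Rpl38 began on the annotated start itself. The windows of Rplp0 and Rpl41 held no such run, which says only that these letters are absent near the annotated start.

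The members together held 20621 reads in replicate 1, which is 1.65% of annotated-gene reads (95% Wilson interval 1.63 to 1.67%). In replicate 2 they held 44367 reads, or 4.01% (3.97 to 4.05%). The mean was 2.83% ± 1.67 (SD, n = 2), and the intervals cover counting error only. The share of replicate 2 was thus 2.43 times that of replicate 1.

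**Figure D1:**
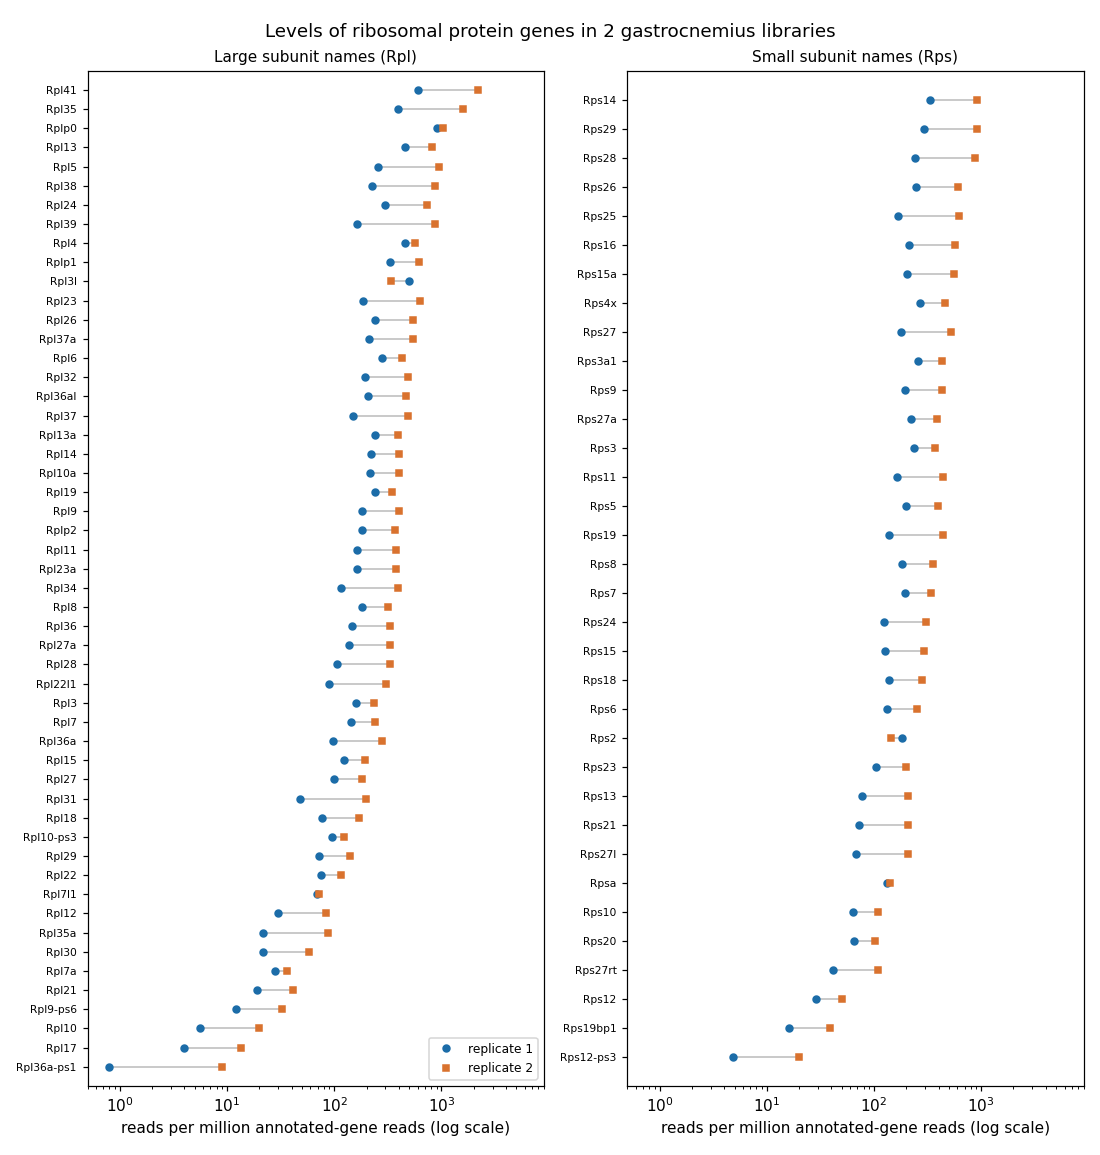
Levels of 86 genes with reads in both libraries, in CPM on a log axis, with genes of Rpl names in the left panel and Rps names in the right panel. Circles are replicate 1 and squares replicate 2; the squares lie to the right for all genes shown except Rpl3l and Rps2.

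A read stands for 1 cDNA, so CPM was not divided by length, and the length of the leading annotated model is given where levels of genes are set side by side. Over the 77 large and small subunit genes the median was 221 reads in replicate 1 (quartiles 133 and 297) and 420 in replicate 2 (quartiles 228 and 607). The order of these genes was similar in both libraries, with Spearman's rho of 0.87 and Pearson's r of 0.93 across 77 genes of log2(CPM + 1). Those points share their library, and genes are not independent replicates. Large subunit genes held 64.9% of the reads of both subunits in replicate 1 and 67.6% in replicate 2. On complete reads, those that span the whole coding sequence, the shares were 62.2% and 61.7%.

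Among large subunit genes with many reads was Rpl41, which encodes the smallest protein of the ribosome, with 760 and 2423 reads (609 and 2190 CPM; model of 582 bases). Rpl35 had 491 and 1758 reads (393 and 1589 CPM; 946 bases). In both genes replicate 2 was the higher library. Rpl13 had 566 and 912 reads (780 bases), and Rpl38 281 and 954 (371 bases).

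The ribosomal stalk, the arm that recruits translation factors, is built on Rplp0 with pairs of Rplp1 and Rplp2. Rplp0 had 1126 reads in replicate 1 (902 CPM) and 1146 in replicate 2 (1036 CPM), on a model of 1358 bases. Rplp1 had 413 and 678 reads (499 bases), and Rplp2 225 and 406 (964 bases). Rplp0 thus stood above both of its partners in either library, although its model is the longest of the 3. Rpl5 and Rpl11 join the 5S ribosomal RNA in a particle that also binds Mdm2. Rpl5 had 321 and 1043 reads, Rpl11 had 202 and 420.

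Among small subunit genes, Rps14, Rps29 and Rps28 had the highest mean levels. Rps14 had 412 and 1001 reads (330 and 905 CPM; 597 bases). Rps29 had 363 and 1019 (291 and 921 CPM; 390 bases), and Rps28 had 304 and 972 (243 and 878 CPM; 382 bases). In replicate 1 several others, such as Rps4x, had more reads than Rps28. Rpsa, the laminin receptor and a small subunit protein, had 166 and 156 reads, and Rps2, at the mRNA entry side of the subunit, had 230 and 161. In both of these, replicate 1, the deeper library, had the larger number of reads. In CPM, Rpsa was slightly higher in replicate 2 (133 and 141), and Rps2 was higher in replicate 1 (184 and 146).

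Of the 4 members on the X chromosome, Rps4x had 332 and 513 reads, Rpl39 205 and 958, and Rpl36a 121 and 309. Rpl10, a late-joining protein of the large subunit, had only 7 and 22 reads (5.61 and 19.9 CPM). The single-exon gene Rpl10-ps3 on chromosome 9, typed as coding, had 120 and 135 reads, and its coding sequence of 645 bases was identical to that of Rpl10 at every base. Reads of these genes could therefore be split between the copies in the authors' assignment. The other lowest members were Rpl17 with 5 and 15 reads, Rpl9-ps6 with 15 and 36, Rps12-ps3 with 6 and 22, and Rpl36a-ps1 with 1 and 10. No read was listed for Rpl10l, Rpl39l, Rpl9-ps1 and Rpl36-ps4.

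Annotated pseudogenes that resemble the members held many reads. Of 597 annotated pseudogenes with reads, 192 aligned best to the transcript of a member, over at least 50% of their length and with a median identity of 99.0%. Together they held 3957 reads in replicate 1 and 8863 in replicate 2, which is 16.1% and 16.7% of the reads of members and copies combined. The copies belonged to 69 members. In 11 members the copies held more reads than the gene in both libraries: Rpl7a, Rpl17, Rpl21, Rpl27, Rpl30, Rpl31, Rpl35a, Rpl37, Rps2, Rps6 and Rps13. These genes, and those of the copies discussed next, were chosen after their values were seen.

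Rpl21 had 24 and 46 reads in the gene, and its 5 copies had 313 and 622, or 92.9% and 93.1% of the family. Rpl35a had 27 and 97 in the gene and 259 and 586 in 11 copies. For Rpl17 the gene had 5 and 15 and its 9 copies 91 and 193. The share in the copies was 90.6% and 85.8% for Rpl35a and 94.8% and 92.8% for Rpl17. A difference between the libraries in this share was not tested, and it was wider in other genes, such as Rps3a1 with 7.18% and 20.1%. Rps29 had a single copy with reads, Gm14303, whose 315 and 924 reads nearly matched those of the gene, and whose alignment showed 100% identity. Rpl37 had 187 and 540 reads against 256 and 703 in Rpl37rt (99.7% identity). With copies added, the ratio of the upper to the lower quartile over the 77 subunit genes changed from 2.23 to 1.71 in replicate 1 and from 2.66 to 1.70 in replicate 2. Whether a pseudogene read came from the copy or from the parent mRNA was not tested, so the levels of single members with such copies are uncertain.

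**Figure D2:**
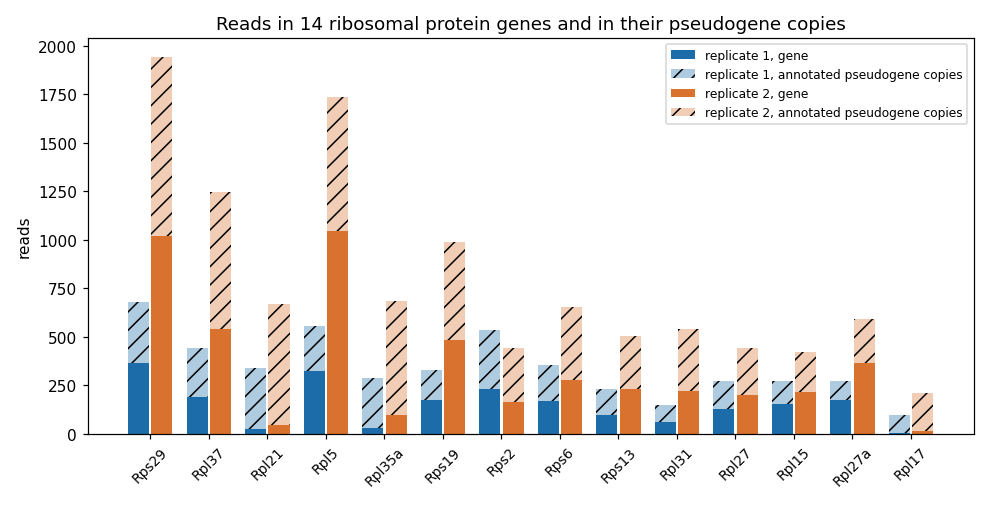
Reads of the 14 members with the most reads in pseudogene copies; solid bars are the gene, hatched bars stacked on top are its annotated pseudogene copies, and each pair of bars is replicate 1 and replicate 2. For Rpl21, Rpl35a and Rpl17 nearly the whole bar is hatched.

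Paralog pairs were compared within each library, where depth is shared. Rpl3l lies at chr17:24727634-24736143 and its parent Rpl3 on chromosome 15; the leading models measure 1375 and 1351 bases. Their coding sequences align with 73.2% identical bases. The first 108 coding bases of both, with the 25 differing bases in capitals, are shown because the pair differs in tissue use (GENCODE M21, GRCm38; Rpl3 chr15:80082478-80083326 on the minus strand and Rpl3l chr17:24727884-24728421 on the plus strand, both spanning introns).
Rpl3: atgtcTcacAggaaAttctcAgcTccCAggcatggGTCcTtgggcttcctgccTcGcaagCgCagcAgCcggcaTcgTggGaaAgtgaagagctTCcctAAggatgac
Rpl3l: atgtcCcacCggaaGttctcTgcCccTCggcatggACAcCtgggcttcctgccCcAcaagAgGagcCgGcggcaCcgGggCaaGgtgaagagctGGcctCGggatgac
Rpl3l had 626 reads in replicate 1 and 372 in replicate 2, and Rpl3 had 198 and 262. The paralog thus held 76.0% of the pair's reads in replicate 1 (interval 72.9 to 78.8%) and 58.7% in replicate 2 (54.8 to 62.4%). By the genes' own reads it exceeded its parent in both libraries, with a mean of 67.3% ± 12.2 (SD, n = 2). Pseudogene copies of Rpl3 held a further 74 and 134 reads, while Rpl3l had none in copies. With these added to Rpl3, the share of Rpl3l was 69.7% in replicate 1 (66.6 to 72.6%) and 48.4% in replicate 2 (44.9 to 52.0%), where the interval included an equal split. Among Known models alone, those with an annotated intron chain, the share was 70.4% and 49.4%, so that in replicate 2 the pair was about even. On complete reads, without copies, it was 76.1% in replicate 1 and 56.7% in replicate 2 (52.6 to 60.7%), where the interval lay above an equal split. Whether Rpl3l exceeded its parent in replicate 2 thus depended on the reads counted.

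Rpl22l1, the paralog of Rpl22, had 112 reads in replicate 1 and 339 in replicate 2, where Rpl22 had 94 and 129. Its share was 54.4% (47.5 to 61.0%) and 72.4% (68.2 to 76.3%). In replicate 1 the interval included an equal split. Rpl36al had 257 and 522 reads against 121 and 309 of Rpl36a, a share of 68.0% and 62.8%, or 62.8% and 57.1% with the copies of both genes added. Rps27l held the smaller part of its pair, with 85 and 228 reads against 221 and 584 of Rps27, or 27.8% and 28.1%. Rpl7l1 had 86 and 80 reads against 179 and 267 of Rpl7 (32.5% and 23.1%); its leading model is 2606 bases long. No read was listed for Rpl10l or Rpl39l. The 3 reads that a count of 0 allows equal 42.9% and 13.6% of the reads of Rpl10, too wide a bound to limit Rpl10l. For Rpl39l they equal 1.46% and 0.313% of the reads of Rpl39. Rps27rt, a single-exon gene with a coding sequence identical to that of Rps27, had 52 and 120 reads. Rps4l is typed as a pseudogene in the annotation and so is not a member; it had 1 and 3 reads.

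**Figure D3:**
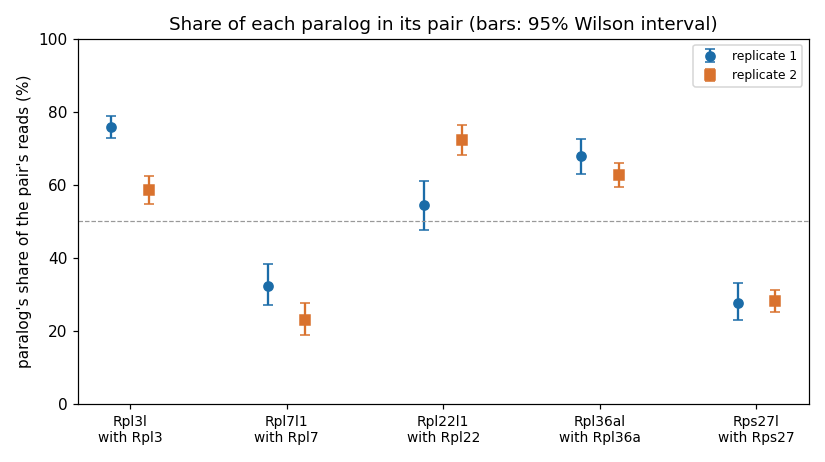
Share of each paralog in the reads of the paralog and its parent without pseudogene copies, in percent, for the 5 pairs with reads in both; circles are replicate 1, squares replicate 2, bars the 95% Wilson interval and the dashed line an equal split. Rpl3l, Rpl22l1 and Rpl36al lie above the line in both libraries, and Rpl7l1 and Rps27l below it.

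The 2 libraries were compared gene by gene with Fisher's exact test (two-sided), with adjustment over the 8973 genes of at least 10 reads. Genes were called at an adjusted p below 0.05 where the log2 ratio was at least 1 in size. The ratio is replicate 1 to replicate 2 of TMM-scaled CPM. Fisher's test itself used the unscaled totals of annotated-gene reads, so the choice of scaling entered a call only through the ratio. Such a test compares the reads of 2 libraries and holds no spread between animals. Of the 88 members tested, 73 were called higher in replicate 2, where 11.4% of all genes tested were called. None was called higher in replicate 1, against 8.87% of all genes. The median log2 ratio of the members was -1.47, beside 0.01 for all genes tested. TMM scaling moved every log2 ratio by -0.28 against scaling by the library total, and with the total 55 members were called higher in replicate 2, none higher in replicate 1, and the median was -1.19. With the total, 9.00% of all genes were called higher in replicate 2 and 12.5% higher in replicate 1, and their median was 0.29.

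All 46 large subunit genes had a ratio below 0, and 38 of them were called. Of the 31 small subunit genes 27 were called. Only Rpl3l and Rps2 had a ratio above 0, of 0.29 and 0.06. With scaling by the library total, 2 members again had a ratio above 0. Next in order came Rpl7l1 (-0.35), Rpsa (-0.37) and Rplp0 (-0.48). Among the ratios furthest toward replicate 2 were those of Rpl36a-ps1 (-3.18, on 11 reads in all), Rpl39 (-2.68), Rpl31 (-2.33) and Rpl35 (-2.30).

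Length moved with this difference. The members' leading models had a median length of 774.5 bases, against 2562 bases for all genes with a length. Among genes with models of 500 bases or less, the median log2 ratio was -1.86 for 15 members and -1.59 for 184 other genes. For models above 500 and up to 1000 bases it was -1.44 for 49 members and -1.21 for 710 other genes. In both classes the median gene was higher in replicate 2, among members and among other genes. Up to 500 bases 100% of the members and 62.0% of the other genes were called higher in replicate 2, and in the next class 89.8% and 48.0%. Of the other genes, 3 and 6 in these classes were called higher in replicate 1. Above 1000 and up to 2000 bases the median was -1.17 for 21 members and -0.37 for 2104 other genes. In that class 61.9% of the members and 10.6% of the other genes were called higher in replicate 2. Over 2000 bases the median was -0.92 for only 3 members and 0.32 for 5469 other genes. Members and other genes of like length thus differed more in the longer classes.

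With a lowess trend on log2 length removed, 12 of 88 members were called higher in replicate 2, where 6.45% of all genes were called. None was called higher in replicate 1, against 3.45% of all genes. The members' median became -0.28. They included Rpl5, Rpl12, Rpl23, Rpl28, Rpl31, Rpl35, Rpl39, Rps15a, Rps20, Rps24 and Rps25. The annotated length can exceed that of the mRNA: the leading models of Rps15a and Rps20 are listed with 5179 and 3706 bases. With the length of the shortest coding transcript in place of the leading model, 19 members were called, against 6.59% of all genes, and 10 genes were called in both fits. Rps15a and Rps24 were not among these 10.

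**Figure D4:**
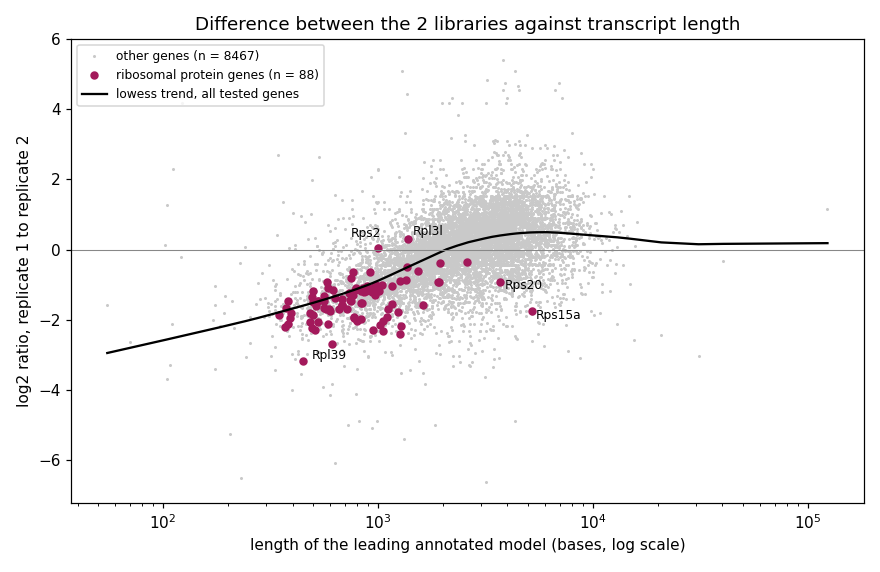
Log2 ratio of replicate 1 to replicate 2 against the length of the leading annotated model (log axis) for the tested genes with a length; grey points are 8467 other genes, coloured points 88 ribosomal protein genes and the line the lowess trend over all. The members lie at the short end and near the line up to about 1000 bases, with Rps15a and Rps20 far below it at the long end.

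Other marker lists also differed between the libraries. Fibroblast markers (4 of 4 detected) summed to 7918 CPM in replicate 1 and 3397 in replicate 2. Slow fibre markers (4 of 4) summed to 1820 and 5930 CPM, and Schwann cell markers (4 of 4) to 573 and 2446. Their part in the difference of the ribosomal protein genes was not tested. In bulk tissue, a change in the cells present and a change in RNA per cell cannot be told apart.

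Long reads show how much of each transcript was captured. A read was counted as complete when its model held the whole coding intron chain of a coding transcript and reached both its start and its stop codon. Models carry annotated or assembled ends, so completeness is that of the model. Of the members' reads, 87.8% were complete in replicate 1 (interval 87.3 to 88.2%) and 76.9% in replicate 2 (76.5 to 77.3%). Nearly all of the rest lacked the start codon: 10.8% of reads in replicate 1 and 21.9% in replicate 2. The median subunit gene was 95.6% and 93.7% complete, and 60 of 77 were less complete in replicate 2. A total of 48 genes had at least 90% complete reads in both libraries, while Rpl5 and Rpl10 had under 50% in both.

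By complete reads, Rplp0 with 1083 and Rpl41 with 2392 complete reads led replicates 1 and 2.

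Rpl5 had 67 complete reads in replicate 1 and 66 in replicate 2. Its other reads lay mostly in Rpl5-204, an annotated retained-intron model of 1024 bases that covers the 3′ part, with 249 and 936 reads. Rpl5-204 held 78.8% and 91.7% of the Known-model reads, and this share differed (adjusted p = 4.8e-07, Fisher's exact test). The pseudogene Gm15500, with 100% identity over its alignment, had a further 235 and 694 reads. On complete reads, the log2 ratio of Rpl5 was -0.57 with an adjusted p of 0.78 (Fisher's exact test), so the call toward replicate 2 rested on the 3′ models. Rpl39 had 29 and 591 reads that lacked the start codon, of which 29 and 589 lay in a single-exon model. Its complete share was 85.9% in replicate 1 and 38.0% in replicate 2, and its ratio on complete reads was -1.64. Rpl4 was 91.9% and 63.2% complete. Over all members, complete reads left 69 called higher in replicate 2 and none higher in replicate 1. With that setting, which used Known models for other genes, 10.4% and 12.6% of all genes were called higher in replicates 2 and 1.

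**Figure D5:**
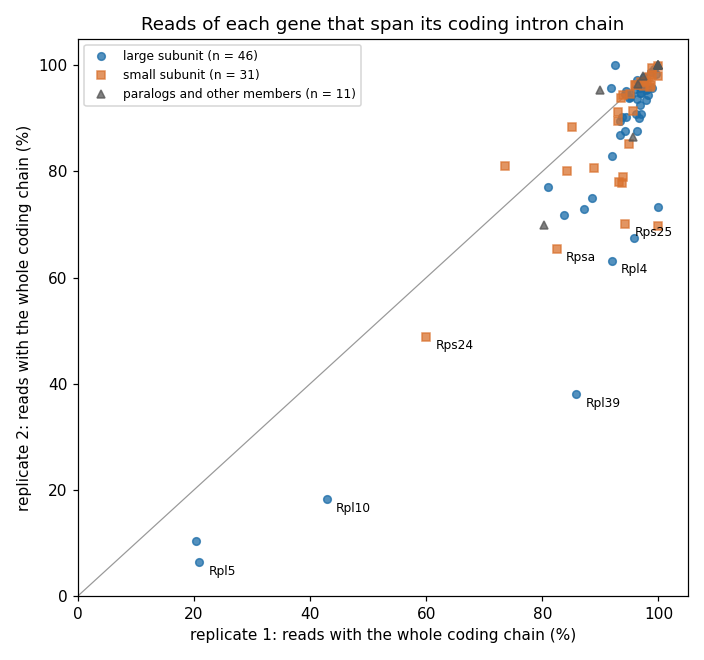
Percent of each gene's reads that hold the whole coding intron chain, in replicate 1 (x axis) and replicate 2 (y axis); circles are large subunit genes, squares small subunit genes, triangles the other members and the line equality. Most genes sit at the upper right, with Rpl5, Rpl10, Rps24 and Rpl39 far from it.

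Beside all annotated genes, the members had few unannotated chains. Known models held 87.8% and 78.8% of their reads, against 69.9% and 72.0% for all annotated genes. Incomplete splice matches held 10.4% and 19.7%, against 8.80% and 12.9%. Chains with an unannotated splice site held 1.29% and 0.884%, against 14.1% and 5.30%. New combinations of known sites held 0.315% and 0.284%. The contrast in Known models was not the same at every length. Above 1000 and up to 2000 bases, Known models held 73.8% and 53.3% of the members' reads, against 85.3% and 78.4% for other tested genes. Above 500 and up to 1000 bases the shares were 95.9% and 91.8%, against 46.5% and 73.4%. In the shortest and longest classes the members also had the higher share. A total of 45 unannotated chains in 37 members had reads in both libraries.

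These chains held 224 and 326 reads, of which a single one in Rps24 held 80 and 144. Exon 4 of this gene (ending at chr14:24493493) can be followed by short exons that change the end of the protein. The most-read chain has a 36-base exon, chr14:24494052-24494087, and the intron behind it, which begins with GT and ends with AG, is not in GENCODE M21. Counted over all models with a junction out of exon 4, the 36-base exon was used by 135 of 153 reads in replicate 1 (88.2%, interval 82.2 to 92.4%) and by 285 of 337 in replicate 2 (84.6%, 80.3 to 88.0%). An 18-base form with the same start had 12 and 33 reads (7.84% and 9.79%). Direct joining to the exon at 24495775 had 6 and 19 reads (3.92% and 5.64%). The 3 joins are shown with 9 bases of exon 4 followed by 21 bases of the next exons, on the plus strand of GRCm38, and the stop codon is in capitals.
Rps24 with the 36-base exon: ggcaaaaagaaaTGAaatacctagcaggta
Rps24 with the 18-base exon: ggcaaaaagaaaTGAaatacctagcagcca
Rps24 with neither: ggcaaaaagccaaaggagTAGatctgcggt
Both short exons bring a stop after 1 codon and leave an open frame of 131 codons, whereas the direct join adds 3 codons and gives 133. The short exons that end the 131-codon frame thus had 147 of 153 junction reads in replicate 1 (96.1%) and 318 of 337 in replicate 2 (94.4%). Of all Rps24 reads, only 93 and 165 were complete, and 61 and 173 did not reach the start codon. The junction counts therefore show which 3′ end was used, not reads that hold the whole frame. Known models of Rps24 had only 7 and 9 reads.

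The next shared chains were smaller. Rpl7l1 had one with 21 and 18 reads and Rpl21 one with 13 and 17. A chain of Rpl13 had 6 and 15 reads, and one of Rpl3l, made of annotated introns, had 12 and 8.

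Beside the leading Known model, 16 members had a second one of at least 5% of Known-model reads in both libraries. In Rpl22l1 it changed the protein by a single codon. The first intron ended at either of 2 sites 3 bases apart, and Rpl22l1-206, without the codon, had 75 and 220 reads, against 34 and 112 for Rpl22l1-201. The shorter form held 68.8% of Known-model reads in replicate 1 and 65.9% in replicate 2. The joins show 12 bases of exon 1 and 18 of exon 2, with the extra codon in capitals (chr3:28805532-28806517 and chr3:28805532-28806520, spanning the intron, plus strand).
Rpl22l1-201: aacatggcgccgCAGaaagacaagaagcct
Rpl22l1-206: aacatggcgccgaaagacaagaagcctaag

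In most of the other genes the second model kept the coding sequence and changed its flanks. Rps28-201, with a donor of intron 3 moved by 4 bases, had 84 and 236 reads (27.9% and 24.8%). In Rpl38, Rpl38-201 had a donor of intron 1 moved by 17 bases and 63 and 288 reads (22.6% and 30.4%). Rpl34-201 had a first donor moved by 197 bases and 9 and 39 reads (6.52% and 9.42%). Rpl8-202 had 47 and 73 reads (22.1% and 23.9%), and Rpl28-202 and Rps27a-201 had 8.66% and 11.0%, and 10.6% and 13.5%. In those 3 the intron chain was part of the leading one, with the same coding sequence. Rps2-201, another model with a shortened chain and the same coding sequence, had 13 and 20 reads (5.73% and 12.7%). An incomplete read of the leading mRNA could also match a chain contained in the leading one. Whether the reads of such models came from a separate isoform was not tested.

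The share of the leading model was tested in 62 members. The share differed by at least 10 percentage points with an adjusted p under 0.05 in 2 of them, where 2.70% of 853 genes were called. They were Rpl5, given above, and Rpl11, whose leading model Rpl11-201 held 96.9% of Known-model reads in replicate 1 and 84.7% in replicate 2 (adjusted p = 0.00017, Fisher's exact test). Rpl11 had 5 and 55 reads that lacked only the start codon, and its 186 and 348 complete reads equalled those of Rpl11-201. Whether its other Known-model reads were another isoform or incomplete reads was not tested. The call of Rps14 missed the size, with 94.5% and 84.9%.

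Other genes of the ribosome were read in the same way. Fau, a fusion of a ubiquitin-like domain with a small subunit protein, had 113 and 265 reads and was called higher in replicate 2 (log2 ratio -1.68), a call lost with the length trend removed (-0.33). Rack1, a scaffold on the small subunit, had 104 and 150 and was not called (-0.98). Of 78 mitochondrial ribosomal proteins, 36 were called higher in replicate 2, against 11.4% of all genes tested. None was called higher in replicate 1, against 8.87%. The median log2 ratio of this list was -0.96 on models of median length 1302 bases. Mrpl30 had 250 and 979 reads, Mrpl33 255 and 688, and Mrpl42 243 and 457. With the trend removed, 17 of the 78 were called higher in replicate 2 and 2 higher in replicate 1, against 6.45% and 3.45% of all genes.

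Of 28 ribosome biogenesis genes, 4 were called higher in replicate 2 and 1 in replicate 1, with a median log2 ratio of -0.21. Of all genes tested, 11.4% and 8.87% were called in these directions, the background for this list and those that follow. With the trend removed, that background was 6.45% and 3.45% of all genes. In this list 3 genes were then called higher in replicate 2, and the median was -0.25. Nop10 and Snu13, parts of the particles that modify ribosomal RNA, had 147 and 323 and 76 and 126 reads. Ncl, the nucleolar protein nucleolin, had 119 and 74. Of 11 tested genes of RNA polymerase I and its factors, 2 were called higher in replicate 1 and none in replicate 2, and none in either direction with the trend removed. Polr1d had 106 and 135 reads, Ubtf 66 and 18, and Rrn3 46 and 34. Of 15 other transcripts known for the oligopyrimidine tract, 2 were called higher in replicate 1 and 1 in replicate 2, with a median of -0.38 and a median model length of 1794 bases. With the trend removed none was called and the median turned to 0.06. Tpt1 had 583 and 667 reads, Eef1g 624 and 575, and the elongation factor Eef2 640 and 227.

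Of 13 genes of the mTORC1 and LARP1 pathway, 3 were called in each direction, with a median log2 ratio of 0.28. Their median model length was 4586 bases. With the trend removed the median turned to -0.08, with 3 called higher in replicate 1 and 4 in replicate 2. The genes are regulators rather than structural parts of the ribosome, and the 3 with the highest mean level were Eif4ebp1, Rheb and Tsc1. Eif4ebp1, a translation repressor that mTORC1 inactivates, had 113 and 212 reads. Rheb, the GTPase that activates mTORC1, had 118 and 153, and Tsc1, part of the complex that holds Rheb inactive, had 39 and 212.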

How the data were processed

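Per the file headers, the authors deposited raw read counts per transcript model for each of the 2 libraries, with an annotation file of the models. The attributes name TALON, and the submitters' notes name mm10 and GENCODE M21; for the aligner, none was given in sources used here. Gene reads were summed over all models of an annotated gene, with spike-ins and unannotated loci left out. TMM factors came from edgeR 4.0.16 and alternative size factors from DESeq2 1.42.0, with a prior count of 0.5. With 1 group no quasi-likelihood contrast exists, so libraries were compared with Fisher's exact test (scipy 1.17.1) and, after a lowess trend of fraction 0.3 on length, an exact binomial test, both with Benjamini-Hochberg adjustment. Pseudogene transcripts were aligned with BLAST 2.17.0 (e-value limit 1e-20) to coding transcripts. Sequences are from RefSeq (GRCm38.p6) and GENCODE M21 (GRCm38); coding sequences replaced proteins in the paralog comparison. The tests count reads without molecular identifiers, which are not independent molecules. Members and lists were chosen with earlier results of these data known. Genes were named by level (10 highest, 5 lowest), by ratio (5 in each direction), as paralogs, stalk, 5S or X-linked members, by second models and shared chains, and as the 3 highest of each list. Some genes that these rules name are not reported here. Alternatives cover scaling, filters, prior, model classes, length and single libraries.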

Additional observations from a re-analysis of the deposited data

How the results depend on the processing

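No paired analysis was possible because the labels give only 1 group. No member was called higher in replicate 1 under any alternative run. The number called higher in replicate 2 was 73 and lay between 55 and 81 under the alternatives of scaling, filter, prior, size of ratio and model class. It was 12 with the length trend removed and 19 with the length of the shortest coding transcript. The latter was chosen after seeing the data, as were the complete-chain, copy and subunit alternatives. The background moved too: of all genes, 11.4% were called in this direction in the main run. That share ran from 6.08% with no filter to 19.9% with at least 50 reads in the sum. At the size of ratio of 0.5, which gave 81 members, it was 13.1%. In the fits on length it was 6.45% (leading model) and 6.59% (shortest coding transcript). The median log2 ratio of -1.47 became -1.19 with scaling by the total, -0.28 with the length trend removed and -0.66 with the shortest coding transcript. The summed share of 2.83% ranged from 1.65 to 4.01% when either library was left out, and was 2.27% with complete chains and 3.39% with pseudogene copies. The share of reads in Known models ranged from 78.8 to 87.8% between single libraries. For isoform share 2 members were called under either alternative. They were 2 of 68 tested with at least 20 Known-model reads in each library, where 30 of 1643 genes were called. With unannotated chains included they were 2 of 73, where 29 of 1426 genes were called. Known models lowered the share of Rpl7l1 in its pair to 19.5%, and pseudogene copies that of Rpl36al to a mean of 60.0%. Depth limits members with few reads, such as Rpl10.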
